A study of Mus musculus with 6 samples.

Results

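The Th2 cytokine locus of mouse chromosome 11 holds Il4, Il13 and Il5, with Rad50 lying between Il13 and Il5 and Kif3a lying next to Il4. Its accessible regions were taken as all peaks between 20 kb outside the outer ends of these 5 genes, chr11:53547379-53745106 in GRCm38, a stretch of 198 kb. This stretch held 21 of the 100771 regions of control Tregs and 26 of the 94499 regions of CREB-deficient Tregs, which joined to 24 of 104845 regions. The position alone chose them, so their accessibility was not used for the choice.

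The data are ATAC-seq peaks, sites where a transposase cut open DNA and sequenced fragments piled up, from splenic Tregs of C57BL/6 mice aged 6 to 12 weeks. The control group, labelled WT, was CREBfl/fl without Cre and therefore carried the floxed alleles too. In the other group, Foxp3creCREBfl/fl, a Cre expressed from the Foxp3 gene removed CREB, so that the deletion concerned Foxp3-expressing cells. The labels name this group a Foxp3 knockout, although Foxp3 was not the deleted gene. The labels give 3 libraries per group, while the methods describe sequencing in duplicate, and 1 peak list per group was analysed, so nothing was tested across mice and a changed mix of cells and a change per cell cannot be told apart. Peaks do not show whether the floxed part of the CREB gene was removed.

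IL-4, IL-13 and IL-5 are the signature cytokines of type 2 immunity. IL-4 drives Th2 differentiation and the switch of B cells to IgE, IL-13 acts on epithelium and smooth muscle, and IL-5 supports eosinophils. In Th2 cells of mice the transcription factors GATA3 and STAT6 open the locus, and a locus control region in the last introns of Rad50, a gene for a DNA break repair protein with its own ubiquitous promoter, acts on the cytokine genes at a distance. Kif3a encodes a kinesin motor subunit needed for cilia and is also transcribed in many cell types. CREB binds the cAMP response element, CRE, with the word TGACGTCA, or its shorter form TGACG.

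Of the 24 regions, 7 are printed here because the comparison of the groups turns on them: the 3 found in 1 list only, and 4 shared ones, with the lowest ratio or a ratio among the 4 highest. They were read from the forward strand of GRCm38. For the Il4 region and the stronger Rad50 region the 200 bases around the summit are given, and for the others the whole region. Capitals mark TGACG, the GATA words AGATAA or AGATAG or TGATAA or TGATAG, and the AP-1 words TGACTCA or TGAGTCA, on either strand.
Il13 start, chr11:53634652-53634766: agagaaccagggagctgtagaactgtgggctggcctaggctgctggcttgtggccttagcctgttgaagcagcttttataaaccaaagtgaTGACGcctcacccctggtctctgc
Kif3a intron 8, chr11:53585664-53585758: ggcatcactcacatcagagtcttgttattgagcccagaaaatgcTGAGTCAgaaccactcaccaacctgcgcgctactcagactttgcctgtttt
Rad50 intron 19, chr11:53671625-53671709: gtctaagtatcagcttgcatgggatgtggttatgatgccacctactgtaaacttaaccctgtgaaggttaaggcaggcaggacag
Il5 upstream, chr11:53719794-53720027: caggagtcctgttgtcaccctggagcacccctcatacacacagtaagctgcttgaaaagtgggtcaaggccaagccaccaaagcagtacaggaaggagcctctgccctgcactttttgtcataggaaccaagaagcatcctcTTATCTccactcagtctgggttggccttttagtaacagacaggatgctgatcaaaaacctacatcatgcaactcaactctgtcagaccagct
Il4 intron 2, chr11:53617285-53617484: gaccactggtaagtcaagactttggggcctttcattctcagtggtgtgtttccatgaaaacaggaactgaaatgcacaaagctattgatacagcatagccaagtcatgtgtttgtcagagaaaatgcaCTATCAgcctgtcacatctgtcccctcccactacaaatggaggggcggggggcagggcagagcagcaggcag
Rad50 intron 21, chr11:53662952-53663151: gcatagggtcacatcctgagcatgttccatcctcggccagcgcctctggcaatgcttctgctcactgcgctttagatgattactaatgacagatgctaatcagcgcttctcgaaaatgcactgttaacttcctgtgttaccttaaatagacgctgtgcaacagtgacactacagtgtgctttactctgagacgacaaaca
Rad50 intron 24, chr11:53651062-53651225: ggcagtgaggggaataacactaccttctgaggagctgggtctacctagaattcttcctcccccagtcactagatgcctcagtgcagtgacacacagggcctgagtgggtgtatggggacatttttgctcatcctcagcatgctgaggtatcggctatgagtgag
The Il13 sequence is the only one of these with a TGACG word, and it lies at chr11:53634743-53634747, upstream of the start of Il13, which is transcribed from the reverse strand. The Il5 and Il4 sequences each hold 1 GATA word, the Kif3a sequence an AP-1 word, and none of the 3 Rad50 sequences holds any of the marked words. A region in Rad50 intron 22, with a higher ratio than the intron 21 site, is not printed. Within 150 bp of its summit stood 3 GATA words, and 2 and 1 stood at the other regions of intron 21. For the intron 24 region 1 GATA word stood within 150 bp of the summit but outside the region.

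Both groups had the same strong sites. The number of fragments over a summit, here called the pileup, was recovered from the fold and p of each peak, and divided by the genome background of its list, 8.44 fragments in CREBfl/fl and 5.09 in Foxp3creCREBfl/fl. The CREBfl/fl list was thus 1.66 times as deep. The Rad50 promoter was highest, with a pileup of 814 (96.4 times the background) in CREBfl/fl and 561 (110.3 times) in Foxp3creCREBfl/fl. The Kif3a promoter followed, with 606 (71.8 times) and 459 (90.2 times). Both are promoters of widely transcribed genes, and their summits lay 47 and 28 bp from the annotated starts. Next came a region 15 kb downstream of the Il5 start, chr11:53735520-53736001, with 422 (49.97 times) and 302 (59.4 times), and a region in Kif3a intron 9 with 383 (45.4 times) and 280 (55.0 times). These 4 regions had the same order in both lists. The Rad50 intron 21 site printed above ranked behind a second region downstream of Il5, chr11:53736935-53737865, in CREBfl/fl (305 against 317 fragments), and ahead of it in Foxp3creCREBfl/fl (274 against 231).

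**Figure D1:**
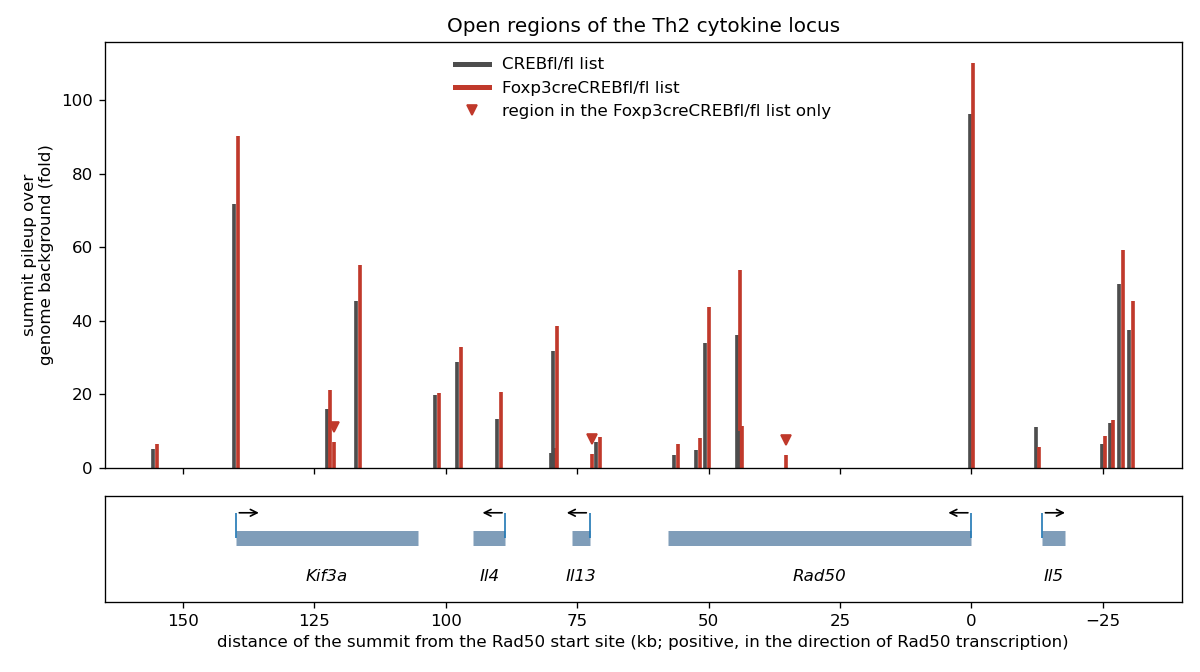
Summit pileup over the genome background of each list (vertical axis, fold) against the distance of the summit from the Rad50 start in kb, with CREBfl/fl in grey and Foxp3creCREBfl/fl in red, and the 5 genes with their direction of transcription below. Pairs of lines are shared regions, drawn slightly apart, and triangles mark the 3 regions found in the Foxp3creCREBfl/fl list only.

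Few regions were called at the cytokine genes themselves. No region had its summit within 1 kb of the main Il4 start in either list. The nearest one, in Il4 intron 2, lay 1.28 kb inside the gene. Its summit was 47 bp from the start of a shorter transcript, which is also annotated as protein-coding. At Il5 the nearest region lay 889 bp upstream of the start. At Il13 the start itself carried a region in the Foxp3creCREBfl/fl list only. The bodies of Il13 and Il5 held 0 summits in either list, and so did the parts inside the stretch of the 6 other annotated genes that touch it (Sept8, A430108G06Rik, Rps2-ps4, Gm22275, Gm12214 and Gm12213). In all, 5 of the 24 regions (20.8%) lay within 1 kb of the start of a protein-coding transcript, against 21.9% of all regions.

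Every CREBfl/fl region of the locus had a counterpart in Foxp3creCREBfl/fl, while 3 regions were found in Foxp3creCREBfl/fl only. A counterpart is an overlap of at least 1 bp. Over the genome, 16.4% of CREBfl/fl regions had none, and on chromosome 11 15.3%. At the locus this was 0 of 21, with a Wilson 95% interval up to 15.5% and a limit of 14.3% from 3 counts. Of the 26 Foxp3creCREBfl/fl regions, 3 had none (11.5%, Wilson interval 4.0 to 29.0%), against 6.61% over the genome and 6.36% on chromosome 11, both within the interval. These intervals cover counting error only.

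The 3 regions are weak. The region at the Il13 start had a pileup of 19 in Foxp3creCREBfl/fl, 3.73 times the genome background, with a −log10 q of 3.24 and its summit 18 bp upstream of the start. It ranked low in its own list, with 3.57% of that list's pileups at or below it. CREBfl/fl regions with a like local background were called from a pileup of 23, 2.72 times the background, so a weaker signal at the Il13 start would not have been listed there. The region in Kif3a intron 8 had a pileup of 36 (7.08 times), against a lowest called pileup of 36 (4.26 times) in CREBfl/fl, and a −log10 q of 6.62. It lies beside a stronger shared region of the same intron, with 135 and 108 fragments. The region in Rad50 intron 19 had a pileup of 18 (3.54 times, −log10 q of 3.74), against a lowest called pileup of 19 (2.25 times). The levels of all 3, over background, were thus above the lowest level called in CREBfl/fl, although their fragments were no more than that list's lowest call. With a −log10 q of at least 5 in both lists only the Kif3a region remained.

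For the 21 shared regions the log2 ratio of the pileups over background, Foxp3creCREBfl/fl over CREBfl/fl, was taken relative to the median of all 82009 shared regions, which was 0.15. Of the 21 ratios, 18 were above 0 and 3 below, where the shift puts the median of all shared regions at 0. Their median was 0.13 (mean 0.15, SD 0.36 over the 21 regions), against 0.00 for chromosome 11. The ratios of neighbouring regions come from the same 2 lists and are not replicates. When the authors' fold over the local background was used instead, 14 of the 21 were above 0 and the median was 0.053. The exact binomial 95% interval of the ratio, which covers counting error only, lay above 0 in 3 regions and below 0 in 1, against 5.47% and 7.89% of all shared regions. Beyond 2-fold and 5 counting SDs were 0 of the 21, against 0.0841% of all regions on the higher side and 0.121% on the lower side. Summits shifted by a median of 5 bp between the lists, and 16 of 21 by no more than 10 bp.

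**Figure D2:**
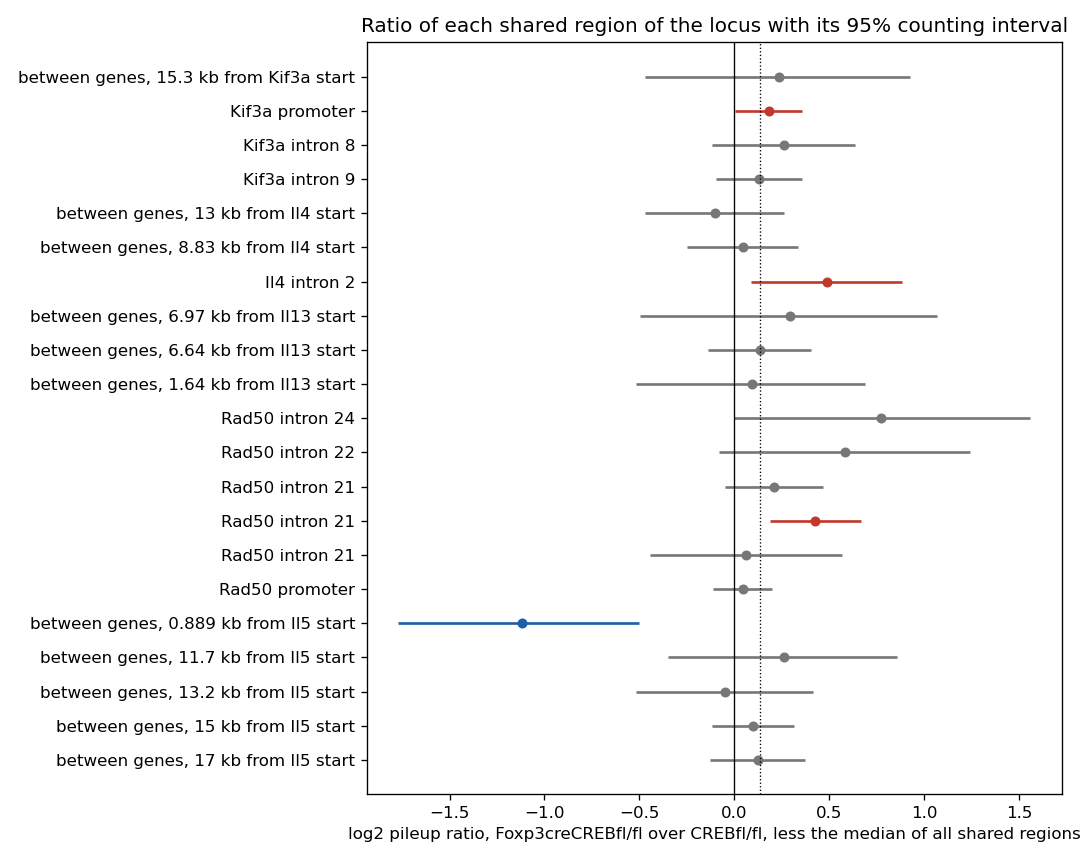
Log2 pileup ratio of each of the 21 shared regions, Foxp3creCREBfl/fl over CREBfl/fl and relative to all shared regions, from the Kif3a end (top) to the Il5 end (bottom), with exact 95% counting intervals as lines. Red intervals (3) lie above 0, the blue one below 0, and the dotted line is the median of 0.13.

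The region upstream of Il5 had the largest difference. Its pileup was 94 (11.1 times the background) in CREBfl/fl and 29 (5.70 times) in Foxp3creCREBfl/fl, both over the genome background. The log2 ratio was -1.12 (interval -1.77 to -0.50), 2.17-fold lower in Foxp3creCREBfl/fl and -3.64 counting SDs from 0. It was the only region of the locus above 2-fold, and it missed the limit of 5 SDs. Of the 4126 shared regions of like level, 0.46% had a ratio at or below it. The summits in the 2 lists were 1 bp apart, with the GATA word of the printed sequence 31 bp away. Without this region the median of the locus was 0.16.

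The other regions around Il5 moved little. The 4 regions downstream of it had ratios between -0.05 and 0.26 with a median of 0.11, and each interval held 0. The strongest, with 422 and 302 fragments, had a ratio of 0.10 (interval -0.12 to 0.31). The difference between these 4 regions and the one next to the Il5 start was not tested.

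In the last introns of Rad50 (21 to 24), where the locus control region is known to lie, all 5 shared regions had ratios above 0. Their median was 0.43. A further region of Rad50, found in Foxp3creCREBfl/fl only, lay outside these introns, in intron 19. By the authors' fold, which divides by the local background, 4 of the 5 were above 0, the ratio of the weak intron 21 region fell to -0.21 and the median was 0.16. Of the 5 intervals, 4 held 0. The exception was a strong region of intron 21, chr11:53662784-53663205, with 305 fragments (36.1 times the background) in CREBfl/fl and 274 (53.9 times) in Foxp3creCREBfl/fl. Its ratio was 0.43 (interval 0.19 to 0.67), a 1.34-fold higher level and 3.55 counting SDs, and 1.02% of the 4100 shared regions of like level had a ratio at or above it. The local background there was 1.40 times the genome background in CREBfl/fl and 1.76 times in Foxp3creCREBfl/fl, and by the authors' fold the ratio was 0.16. The local background recovered for the site, relative to the genome background, was thus higher in Foxp3creCREBfl/fl as well. This was not particular to the site: it was also higher at the Rad50 promoter (3.48 and 3.73 times) and the Kif3a promoter (2.31 and 2.73 times). How much of the local background comes from fragments of the peaks themselves was not tested.

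The smaller regions of these introns were measured less precisely. The region in intron 24 had 28 fragments (3.32 times) and 32 (6.29 times), a ratio of 0.77 with an interval from -0.00 to 1.56. The region in intron 22 had 41 fragments in both lists (4.86 and 8.06 times), a ratio of 0.58 (interval -0.08 to 1.24). These are the largest positive ratios of the locus, and the counts leave each interval reaching 0. In intron 21, a strong region at chr11:53656670-53657228 had 287 and 222 fragments and a ratio of 0.21 (interval -0.05 to 0.47), and a weak one beside the site named above had 83 and 58 and a ratio of 0.06 (interval -0.45 to 0.56). The Rad50 promoter, at the other end of the gene, had a ratio of 0.04 (interval -0.11 to 0.20).

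At Il4 the region in intron 2, chr11:53617221-53617770, had 112 fragments (13.3 times the background) in CREBfl/fl and 105 (20.6 times) in Foxp3creCREBfl/fl. The ratio was 0.49 (interval 0.09 to 0.88), a 1.40-fold higher level, and 3.78% of the 4099 regions of like level were at or above it. It holds a match to the STAT word TTCNNNGAA at chr11:53617334-53617342 and a GATA word at chr11:53617413-53617418. The 2 regions on the downstream side of Il4, inside a longer annotated transcript of the gene, had intervals that held 0. The one 8.83 kb from the start had 242 and 167 fragments and a ratio of 0.05 (interval -0.25 to 0.34), and the one 13.0 kb from the start had 167 and 104 and a ratio of -0.10 (interval -0.47 to 0.26).

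Between Il4 and Il13 the main region, chr11:53627840-53628198, had 267 and 196 fragments (31.6 and 38.5 times the background) and a ratio of 0.13 (interval -0.14 to 0.41). The region 1.64 kb upstream of Il13 had 59 and 42 and a ratio of 0.09 (interval -0.52 to 0.69). Around Il13 the listed difference was therefore the weak region at its start, with neighbours whose intervals held 0. The Kif3a promoter had a ratio of 0.18 (interval 0.00 to 0.36), a 1.13-fold higher level, with 4.41% of like regions at or above it. Its lower bound barely clears 0, and it fell below 0 when the ratios were shifted to the median of start-site regions or when weaker peaks were left out. By the authors' fold the ratio of the Kif3a promoter was 0.015.

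**Figure D3:**
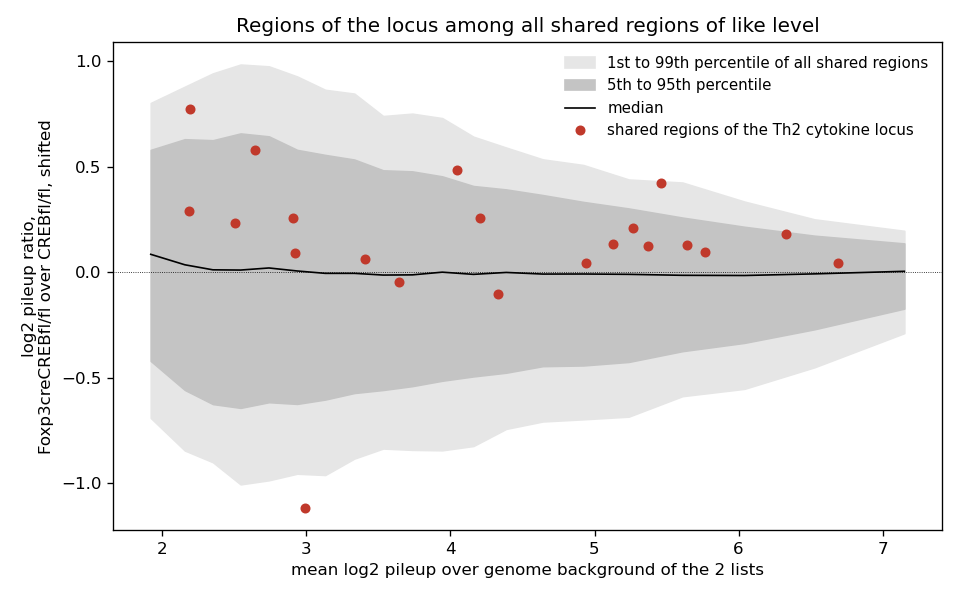
Log2 pileup ratio against the mean log2 pileup over background of the 2 lists, with the median and the central 90% and 98% of all shared regions in 20 bins of level as a line and grey bands, and the 21 shared regions of the locus in red. The Il5 region at -1.12 lies below the bands, and the intron 21 region of Rad50 at 0.43 lies at their upper edge.

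Regions just outside the stretch had ratios within the range of the locus. The nearest region outside on the Kif3a side, 18.5 kb away, had 61 and 50 fragments and a ratio of 0.29 (interval -0.28 to 0.86). The nearest on the Il5 side, 0.285 kb away, had 45 and 37 and a ratio of 0.30 (interval -0.37 to 0.96). With a margin of 0 kb the median was 0.13 over 15 shared regions, and with 50 kb 0.16 over 28.

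The sequences of the 24 regions were searched for 8 motifs as exact words on both strands within 150 bp of the summit, in the same way as in all 104845 regions. GATA words, the site class of GATA3, stood in 15 of the 24 (62.5%), against 37.4% of all regions, and in 14 (58.3% against 26.8%) within 100 bp of the summit. The STAT word was found in 4 (16.7% against 9.72%). The full CRE was found in 0, against 0.916% of all regions, and TGACG in 3 (12.5% against 15.7%). These were the region at the Il13 start, the Rad50 promoter and a weak region between Il4 and Il13. The word counted for this weak region, at chr11:53627852-53627856, lies outside it. It is inside the main region between the 2 genes, chr11:53627840-53628198, but more than 150 bp from the summit of that region. The counts for the AP-1 words were 2 (8.33% against 9.83%), for NFAT (GGAAAA) 6 (25.0% against 22.9%) and for RUNX (TGTGGT) 8 (33.3% against 27.6%). ETS (GGAAGT) stood in 2 (8.33% against 28.4%), of which 1 is the intron 21 region of Rad50 with the higher pileup. These shares describe 24 regions of 1 locus and were not tested. A word match is not a bound site.

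**Figure D4:**
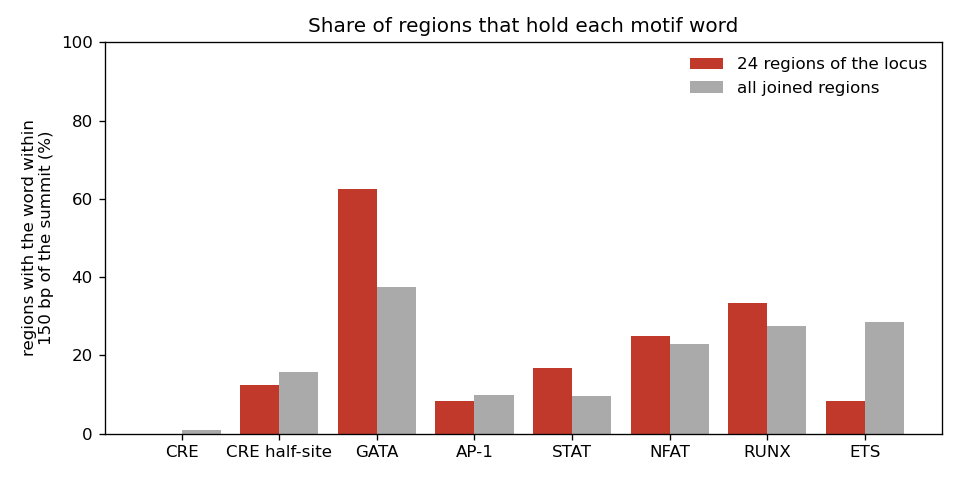
Percent of the 24 regions of the locus (red) and of all 104845 regions (grey) with each motif word within 150 bp of the summit. GATA words stood in 62.5% of the locus regions and 37.4% of all, and ETS words in 8.33% and 28.4%.

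The RefSeq promoters of GRCm38.p6, 250 bases before to 50 after a start, were searched for the same words. TGACG stood in 20.8% of the 32851 promoters, those of Il13 and of the main Il4 start included. GATA words stood in 29.8%, and in the promoters of Il13, Il5 and both Il4 starts. The CRE stood in 1.79% of promoters and in none of the 5 promoters matched to the locus, those of Kif3a, Il13 and Il5 and the 2 of Il4. At Il13, 1 TGACG word is therefore both in the annotated promoter and in the region listed only in Foxp3creCREBfl/fl, with a GATA word just outside that region, at chr11:53634778-53634783.

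Other genes chosen for the Th2 pathway had shares close to those of all regions. The choice was not limited to genes that promote Th2 cells, and included Tbx21, Runx3, Eomes and Riox2. A list of 30 genes (receptors, JAK and STAT proteins, transcription factors, chemokine receptors and further cytokines) had 443 regions within 10 kb of the genes, 343 of them shared. Of their CREBfl/fl regions 77 had no counterpart (17.9%, against 16.4% of all), and of their Foxp3creCREBfl/fl regions 23 (5.94% against 6.61%). Their median ratio was -0.05. Intervals lay below 0 in 30 (8.75% against 7.89%) and above 0 in 17 (4.96% against 5.47%), and 0 passed 2-fold and 5 SDs.  Among the list, Gata3, the master regulator of Th2 cells, had 27 regions, of which 5 were in CREBfl/fl only, 2 in Foxp3creCREBfl/fl only and 3 shared ones had intervals above 0. Satb1, a chromatin organiser known to fold the locus in Th2 cells, had 9 of 30 regions in CREBfl/fl only and a median ratio of -0.25. Stat5b, which relays IL-2 signals, had 7 of 17 shared regions with intervals below 0 and a median of -0.23. Jak1, a kinase of the cytokine receptors, had 9 of 48 regions in CREBfl/fl only and 3 in Foxp3creCREBfl/fl only. The NFAT genes Nfatc1 and Nfatc2, which carry calcium signals to cytokine genes, had 5 regions each in CREBfl/fl only, and 4 and 1 in Foxp3creCREBfl/fl only. Of the 34 shared regions of Nfatc1, 3 had intervals below 0 and 2 above, and of the 19 of Nfatc2, 1 below and 4 above. These 6 are the genes with the most such regions, and this rank was not adjusted for the number of regions of a gene.

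**Figure D5:**
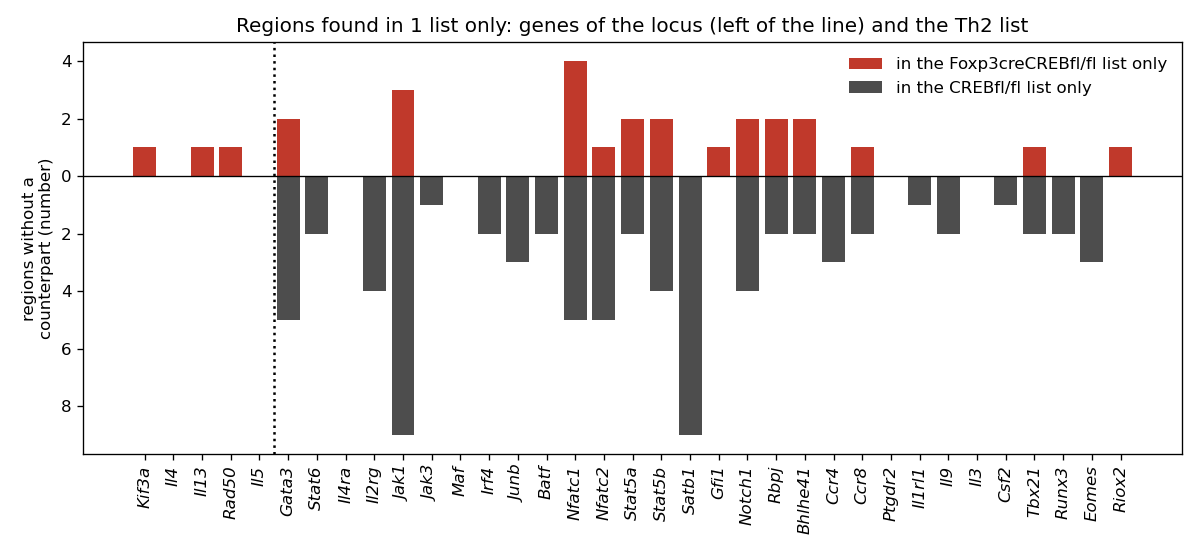
Number of regions without a counterpart, upward for those in the Foxp3creCREBfl/fl list only and downward for those in the CREBfl/fl list only, within 10 kb of each gene. The 5 genes of the locus, left of the dotted line, had 0 downward, as had Il4ra, Maf, Gfi1, Ptgdr2, Il3 and Riox2 of the Th2 list, and the highest bars, 9 each for Jak1 and Satb1, belong to genes with 48 and 30 regions.

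Farther along chromosome 11, the 8 neighbouring genes Irf1, Slc22a5, Slc22a4, Pdlim4, P4ha2, Csf2, Il3 and Acsl6 had 54 regions. Of their CREBfl/fl regions 7 had no counterpart (13.2%, against 16.4% of all), and of their Foxp3creCREBfl/fl regions 2 (4.08% against 6.61%). Their 45 shared regions had a median ratio of -0.12, with 1 interval below 0 (2.22%, against 7.89% of all) and 0 above (against 5.47%). The difference between this median and that of the locus was not tested.

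Marker promoters were read for Tregs and for other cell types that a Treg sort could hold. A promoter counted as open if a region lay within 1 kb of a start, and without a called region its level is not known. All 7 Treg markers were open in both lists, at 40.0 to 116 times the background in CREBfl/fl and 42.7 to 121 times in Foxp3creCREBfl/fl. Of 7 markers of ILC2, mast cells and basophils, other producers of these cytokines, 4 were open in both lists (Gata3, Rora, Il1rl1 and Kit, which some T cells also use). Fcer1a, Mcpt8 and Cpa3 had no called region in either. Il1rl1 stood at 6.16 times the background in CREBfl/fl and 9.83 in Foxp3creCREBfl/fl, and Kit at 6.75 and 5.90. Of the B cell markers, Ms4a1 stood at 3.08 and 7.47 times the background in CREBfl/fl and Foxp3creCREBfl/fl and Pax5 at 19.8 and 26.1 times, while Cd79a had no called region in either. For myeloid cells 2 of 4 were open (up to 18.9 and 17.9 times), with no called region at Lyz2 and Csf1r. For CD8 and NK cells 2 of 4 were open (up to 19.8 and 17.5 times), with none at Cd8a and Ncr1. The part of other cells in the differences at the locus was not tested.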

How the data were processed

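Splenic Tregs were profiled by ATAC-seq with 75 bp read pairs. The authors used Trim Galore for trimming, Bowtie2 for alignment and SAMtools for filtering after duplicate removal, and MACS2 called the peaks; tool versions were not given in the sources used here. The deposited lists, 1 per group, give for each peak a score, the fold (the authors' ratio of summit pileup to background) and −log10 p and q. How libraries were joined is not given in the sources used here. The methods name peak calling without a local background, but local backgrounds above the genome background stand in both lists. The methods and labels name mm9, yet positions fitted GRCm38: 57.7% of 6508 chromosome 11 starts (GENCODE vM21) had a CREBfl/fl region within 1 kb, against 16.4% after a shift by 100 kb, and 0 regions lay past a chromosome end.

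Whole-number pileups and backgrounds were recovered from the fold and p for 99.94% and 99.97% of peaks (tolerance 0.002 on the −log10 scale). Overlapping regions were joined, with the highest pileup taken. Ratios have exact conditional binomial 95% intervals, and shares Wilson 95% intervals, both for counting error only. Median pileups were 90 and 66, so weak regions are imprecise. Regions of like level are 1 of 20 bins of equal size. Scripts used Python 3.11.15, NumPy 2.4.6, pandas 2.3.3, SciPy 1.17.1 and Matplotlib 3.10.9, and were tested on simulated data. Named are the 5 genes, genes touching the stretch, up to 6 genes of the Th2 list with the most regions without a counterpart or past an interval, and regions that had an interval off 0 or no counterpart, were among the 4 strongest, lay within 1 kb of a member's start or in the 3′ part of Rad50; other regions named were chosen after their values were seen. The genes and lists were chosen with earlier results of these data known. Alternatives were overlap, q, margin, shift, pileup measure, window length and threshold. The result of 1 marker is not reported here.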

Additional observations from a re-analysis of the deposited data

How the results depend on the processing

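The count of CREBfl/fl regions without a counterpart stayed at 0 except with a margin of 50 kb, where it was 2 of 30. The count of 3 for Foxp3creCREBfl/fl was 5 with a reciprocal overlap of at least 50% and 5 with summits within 250 bp, and 1 with a −log10 q of at least 5 (the Kif3a region) and 1 with at least 10 (the shared Rad50 intron 24 region, with 5.61 in CREBfl/fl and 13.6 in Foxp3creCREBfl/fl). The median ratio of 0.13 was 0.28 with no shift to the median and 0.053 by the authors' fold. The count of lower regions, 0 by 2-fold and 5 SDs, was 1 by 1.5-fold and 3 SDs (1.35% of all shared regions) and 1 by the authors' fold past 2-fold, in both cases the region upstream of Il5, whose ratio lay between -1.13 and -0.97 under the alternatives. TGACG stood in 1 region within 100 bp of the summit and in 5 over whole regions, AP-1 in 1 and 4, and ETS in 5 over whole regions. The median of the Th2 list changed sign, from -0.05 to 0.10, with no shift. The ratio of the strong Rad50 intron 21 region ran from 0.16 by the authors' fold to 0.58 with no shift. By the authors' fold the ratio of the weak Rad50 intron 21 region, 0.06 with an interval over 0, was -0.21.

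No paired analysis was possible because each group has 1 list, and for the same reason no library could be left out. Depth limits the weak regions: over the genome background, no peak was called below a pileup of 19 in CREBfl/fl and 14 in Foxp3creCREBfl/fl, 2.25 and 2.75 times that background.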
